A study of Homo sapiens with 6 samples.

Results

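The DLK1-MEG3 locus is an imprinted region of chromosome 14. It was examined through 7 genes of the 23228 in the tables, namely DLK1, MEG3, MEG8, RTL1 and DIO3 inside the imprinted region and BEGAIN and WDR25 beside it. They were selected on the control against PELP1-KD contrast of these same libraries, so their read counts and fold changes below are a description and carry no test. RNA-seq was performed on Hep3B, a human hepatocellular carcinoma (HCC) line, in 3 control and 3 PELP1-KD libraries. All cells were grown in RPMI and transduced with lentivirus. Control cells received a non-targeted shRNA, and PELP1-KD cells a PELP1 shRNA followed by puromycin selection and pooling of clones. The titles of the PELP1-KD libraries carry the name of the first shRNA whereas their protocol lists both. Nothing states that the 3 libraries of a group came from separate cultures, so p values measure only the spread between these libraries.

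Imprinted genes are expressed from the copy inherited from only one parent. In this region DLK1, RTL1 and DIO3 are known to be expressed from the paternal chromosome, whereas MEG3, MEG8 and long clusters of small nucleolar RNAs and microRNAs are expressed from the maternal one. DNA methylation of a control region between DLK1 and MEG3 sets this pattern. DLK1 encodes a membrane protein with EGF-like repeats, related to the ligands of NOTCH receptors. It marks fetal liver progenitors and is lost from mature hepatocytes. Gene-level reads do not separate the parental copies, so imprinting itself was not measured.

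The sources name both a poly(A) mRNA kit and a ribosomal depletion kit, and these capture noncoding transcripts differently. The control libraries held between 32945954 and 34456542 reads on genes and the PELP1-KD libraries between 26758363 and 31535892. PELP1 itself had 4970 ± 115 normalized reads in control and 4695 ± 238 in PELP1-KD (log2FC −0.08, SE 0.04, edgeR adjusted p = 0.101). Pairing the libraries by replicate number gave an edgeR adjusted p of 0.0106, and leaving out PELP1-KD replicate 3 gave 0.018. Normalized reads are reads scaled to a common library size, log2FC is the log2 fold change of PELP1-KD against control with its standard error (SE), and ± gives the SD over the 3 libraries of a group here and below. The targeted mRNA thus lay close to its control level. Every PELP1-KD value was still below every control value, as in 29.3% of all genes tested. The paper reports lower PELP1 protein by Western blot in PELP1-KD Huh7 and Hep3B cells, which RNA reads do not measure. PELP1-KD below refers to the label. Cell type markers bear on the cell line and not on the knockdown. The hepatoma markers ALB and AFP had 347499 and 141438 normalized reads in control, and 227274 and 218061 in PELP1-KD. The summed level of 4 endothelial markers was 63.0 to 72.8 in control and 60.7 to 67.6 in PELP1-KD, with CDH5 and KDR at 0 in every library.

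The sequence at the start of MEG3 is shown because it opens the maternal RNA of the region, which was close to absent in both groups. The 300 bases lie on the plus strand of GRCh37, which is hg19, at chr14:101292195-101292494. They run from 250 bases before the start of MEG3 into its first 50 bases, and were taken from RefSeq and matched exactly once to the chromosome. Capitals mark 3 motifs searched on both strands. TGACGTCA, the palindromic cAMP response element, began 50 bases before the start. The letters of the common core promoter element, TATAAA, began 18 bases before it. TGCCGC, the hexamer bound by the imprint-protecting factor ZFP57, lay on the minus strand 181 bases before it and reads as its reverse complement here.

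MEG3 start: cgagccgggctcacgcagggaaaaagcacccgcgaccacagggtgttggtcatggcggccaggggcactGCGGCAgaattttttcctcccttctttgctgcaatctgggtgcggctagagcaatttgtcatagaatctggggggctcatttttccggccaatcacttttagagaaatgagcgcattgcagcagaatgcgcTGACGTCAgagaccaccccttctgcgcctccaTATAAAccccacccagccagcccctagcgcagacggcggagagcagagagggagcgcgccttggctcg

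Of 34943 promoter windows of this length in RefSeq (GRCh38.p14), 1.84% held TGACGTCA, 11.6% held TATAAA and 16.7% held TGCCGC on either strand. A match of letters is not evidence of binding. This is the first of 3 MEG3 windows. It held 19 CG dinucleotides, and 59.0% of all windows held as many or fewer. The median over windows was 14. For the other members with an entry, the window of WDR25 held 39, that of DIO3 held 28, that of RTL1 held 6, and the 5 windows of BEGAIN held 5 to 42. RefSeq sequences matched 5 of the 7 members, and DLK1 and MEG8 were not matched.

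To examine how the locus differed between control and PELP1-KD cells, reads of each member were first compared library by library. DLK1 supplied most reads of the locus in the control libraries and was nearly lost from the PELP1-KD libraries. It lies on the plus strand from 101193202 to 101201467, in 5 exons of 1590 bases that no other gene of the tables shares. DLK1 had 1626, 1607 and 1569 reads in control and 5, 1 and 4 reads in PELP1-KD. Each control library held at least 1569 reads and no PELP1-KD library held more than 5, so the groups were far apart and close within themselves. After normalization DLK1 had 1509 ± 27.1 reads in control and 3.43 ± 2.04 in PELP1-KD (SD, n = 3 each), so 0.227% of the normalized mean remained. The log2FC fitted by edgeR was −8.69 (SE 0.14). In the summed libraries this was 4802 against 10 reads, a ratio of 423 with a 95% interval of 230 to 882 (exact binomial, counting error only). In bulk RNA, fewer cells with DLK1 RNA and less DLK1 RNA per cell cannot be told apart.

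DLK1 was a moderately abundant gene of control Hep3B. Its level per exon length was 30.2 ± 0.54 RPKM (reads scaled to exon length and library size, SD, n = 3). By this level 88.0% of the 23228 genes lay at or below it. Among the 14537 genes that passed the filter on low counts, its control level ranked 4802 from the top. In PELP1-KD the level was 0.0686 ± 0.0408 RPKM. Its log2 fold change was the third lowest of all genes tested, after 2 genes with fewer control reads.

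**Figure D1:**
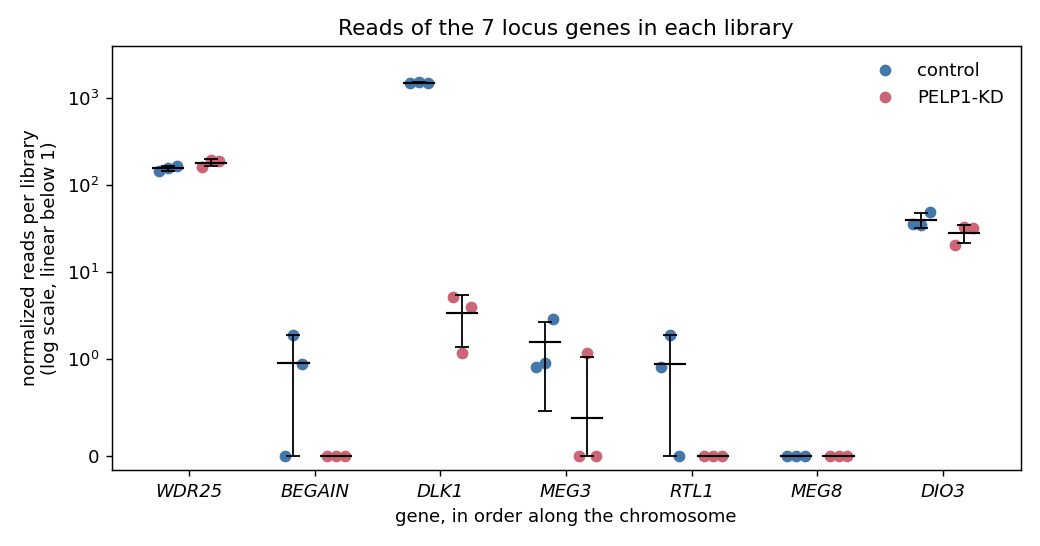
Normalized reads of the 7 locus genes in each library, on a log scale that is linear below 1, with genes in chromosomal order. Points are libraries (3 per group), horizontal lines are means and error bars are SD, drawn down to 0 at most. DLK1 had means of 1509 normalized reads in control and 3.43 in PELP1-KD, WDR25 and DIO3 kept reads in every library, and the other 4 genes had 3 reads or fewer in each.

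DIO3 was the only other imprinted member with more than 3 reads in a library. DIO3 encodes the deiodinase that inactivates thyroid hormone, and lies in a single exon from 102027688 to 102029789 on the plus strand, 834 kb from the start of DLK1. DIO3 had 39, 36 and 51 reads in control and 20, 28 and 32 in PELP1-KD. After normalization the control values were 35.8, 34.5 and 48.6, and the PELP1-KD values were 20.5, 32.7 and 32.0. The groups did not overlap, but the highest PELP1-KD and the lowest control library were less than 2 reads apart. The means were 39.6 ± 7.83 and 28.4 ± 6.85 normalized reads (SD, n = 3 each), giving a log2FC of −0.49 (SE 0.25).

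WDR25, which encodes a WD-repeat protein, marks the side of the locus before DLK1. It lies on the plus strand from 100842755 to 100996640, and its start is 350 kb before that of DLK1. WDR25 had 157, 165 and 175 reads in control and 159, 168.5 and 188 in PELP1-KD, a fraction arising where a read was shared among genes. The normalized means were 156 ± 11.6 and 182 ± 17.3 reads (SD, n = 3 each), with a log2FC of 0.22 (SE 0.11). One PELP1-KD library lay within the control range, so the groups overlapped. Of the 3 members that passed the filter, DLK1 and DIO3 had all PELP1-KD values below all control values. Over all genes tested, 29.3% showed this pattern and 29.5% the opposite one, and 4.79% fell at least 2-fold with an adjusted p below 0.05. Since the contrast chose the members, nothing is read from these counts.

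The maternal noncoding RNAs were at or near 0 reads in control and PELP1-KD alike. MEG3, a long noncoding RNA described as a growth suppressor, lies on the plus strand from 101292445 to 101327360 in 11 exons. It had 1, 1 and 3 reads in control and 0, 1 and 0 in PELP1-KD. MEG8, a noncoding RNA further along the same strand from 101361107 to 101373305, had 0 reads in all 6 libraries. A count of 0 allows up to 0.0298 CPM (reads scaled to library size) in the summed control libraries and 0.0339 CPM in the summed PELP1-KD libraries, for counting error only. RTL1, a gene derived from a retrotransposon, lies on the minus strand from 101346992 to 101351184. It had 1, 2 and 0 reads in control and 0 in each PELP1-KD library. Of its 4193 bases, 480 face 5 microRNA genes on the opposite strand, and the counting used strand. BEGAIN, a gene named for its expression in brain, lies on the minus strand from 101003484 to 101036131 between WDR25 and DLK1. It had 0, 2 and 1 reads in control and 0 in each PELP1-KD library. No fold change is given for these 4 genes, because no library exceeded 3 reads.

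The gene models behind these low counts were short for the noncoding members. The MEG3 exons counted cover 8.91% of the exon bases that GENCODE release 44 assigns to MEG3 over all its transcripts, and those of MEG8 cover 1.81%. The models of RTL1 and BEGAIN cover 77.7% and 35.6%. The counted DLK1 exons cover 29.8% and still collected 1569 reads or more in each control library. Reads on exons outside the models were not analysed here.

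Per exon length, the order of the members in control was DLK1 at 30.2 RPKM, WDR25 at 2.26 ± 0.17, DIO3 at 0.60 ± 0.12, MEG3 at 0.0243 ± 0.0171, BEGAIN at 0.0108 ± 0.0109, RTL1 at 0.00717 ± 0.00728 and MEG8 at 0 (SD, n = 3 each). The first 3 steps of this order exceeded the spread between libraries. MEG3, BEGAIN and RTL1 did not differ beyond theirs. In PELP1-KD the order was WDR25 at 2.64 ± 0.25 RPKM, DIO3 at 0.429 ± 0.104 and then DLK1, below both. DLK1 supplied 87.5% of all reads between WDR25 and DIO3 in control and 1.47% in PELP1-KD.

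The remaining genes of the region were then examined. Between the outer ends of WDR25 and DIO3 the tables hold 99 features over 1187 kb, of which 92 are not members. These include 52 microRNA and 38 small nucleolar RNA features. Of the 92, 90 had 0 reads in every library. From the end of DLK1 to the start of DIO3OS, a stretch of 817 kb with 92 features that include MEG3, RTL1 and MEG8, control libraries held 8 reads in all and PELP1-KD libraries held 1. Of the 90 microRNA and small nucleolar RNA features of the region, 98.9% had 0 reads. Of the 1386 microRNA and SNORD features elsewhere on the genome, 60.5% had 0 reads. Libraries of this kind do not measure mature microRNAs.

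The 2 features with reads lie beside DIO3 on the opposite strand. DIO3OS is a noncoding RNA gene on the strand opposite DIO3 that does not overlap it, from 102018560 to 102022013. It had 9, 6 and 6 reads in control and 14, 9 and 14 in PELP1-KD. The normalized means were 6.57 ± 1.45 and 12.9 ± 2.12 reads (SD, n = 3 each), with a log2FC of 0.97 (SE 0.41, edgeR adjusted p = 0.0514). MIR1247, a microRNA gene from 102026624 to 102026759, had 10, 9 and 9 reads in control and 11, 13 and 11 in PELP1-KD, with a log2FC of 0.49 (SE 0.38, edgeR adjusted p = 0.299). All normalized PELP1-KD values of both features lay above those of control, a pattern shown by 29.5% of all genes tested, and edgeR called 0 of the 2 in either direction. Over the other settings the adjusted p of DIO3OS ran from 0.0477, with library size alone, to 0.208 with DESeq2. At an unadjusted p below 0.05 edgeR had 1 of them, and DESeq2 also called 0. The mature products of MIR1247 are printed because this was the only microRNA gene of the region with reads. Capitals mark the seed, bases 2 to 8, which pairs with targets. Both lie on the minus strand of GRCh37, at chr14:102026699-102026720 and chr14:102026663-102026686, and were taken from RefSeq.
miR-1247-5p: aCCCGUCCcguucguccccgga
miR-1247-3p: cCCCGGGAacgucgagacuggagc

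The seeds differ, so the products of the 2 arms belong to separate seed groups. Reads on the 136-base gene do not measure these products.

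No gene tested beside the locus showed a loss like that of DLK1, with log2FC values from −0.31 to 0.66. Of 24 features that start within 1 Mb outside WDR25 and DIO3, 17 were tested. Of these, edgeR called 3 lower and 6 higher in PELP1-KD at an adjusted p below 0.05, where 26.8% of all genes tested were called lower and 26.8% higher. The remaining 8 did not pass. The median log2FC of the 17 was 0.07, against 0.00442 over all genes tested. The smallest p values belonged to DYNC1H1 and CCDC85C. DYNC1H1, the heavy chain of cytoplasmic dynein, rose from 12007 ± 260 to 15318 ± 213 normalized reads (log2FC 0.35, SE 0.03, edgeR adjusted p = 1.27e-08). CCDC85C rose from 2760 ± 124 to 3342 ± 167 (log2FC 0.28, SE 0.05, edgeR adjusted p = 4.17e-05). WARS, a tRNA synthetase gene that starts beside WDR25 on the opposite strand and was looked at for its position, had a log2FC of −0.07 (SE 0.04, edgeR adjusted p = 0.181). Flanking features below the filter were not tested, and SLC25A47 and DEGS2 are named because their reads fell. SLC25A47 had 4, 5 and 5 reads in control and 0, 1 and 1 in PELP1-KD. DEGS2 had 4, 7 and 1 reads in control and 1, 0 and 1 in PELP1-KD, so its groups overlapped. HHIPL1 (1, 0 and 4 against 0, 6 and 2) and NCRNA00239 (0, 3 and 1 against 2, 1 and 5) rose in mean. Without the filter edgeR called 4 flanking genes lower, in place of 3, and DESeq2 called 3.

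**Figure D2:**
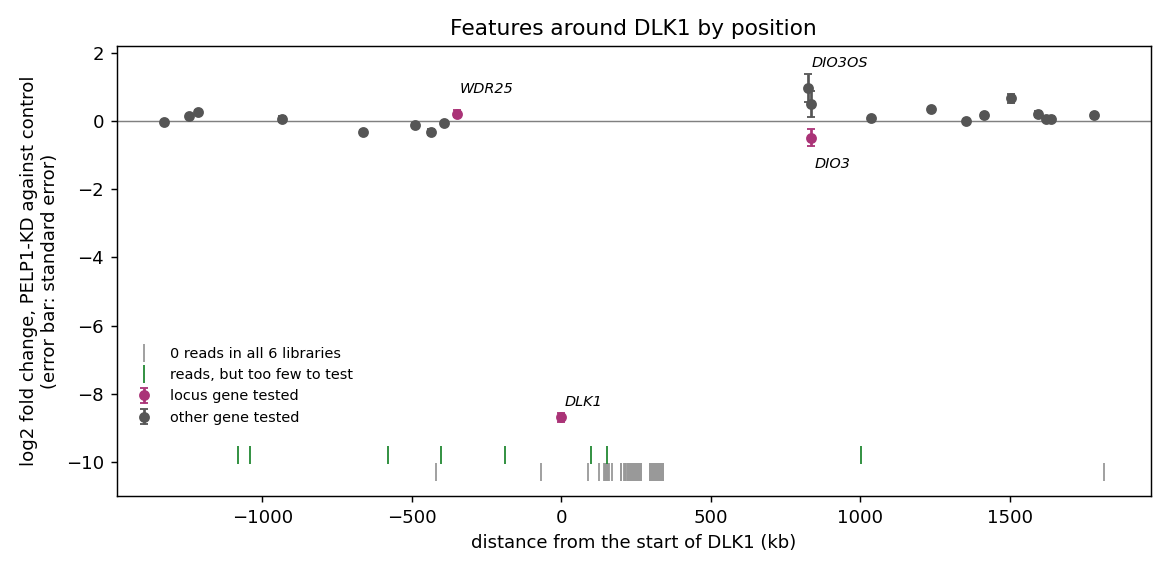
Log2 fold change (PELP1-KD against control) of each tested gene by its distance from the start of DLK1 in kb, with standard errors. Ticks at the bottom mark features with 0 reads in all libraries and features with too few reads to test. DLK1 lay at −8.69, whereas every other tested gene within the plotted range lay between −0.49 and 0.97.

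The genes whose pattern over the 6 libraries lay nearest to that of DLK1 came from other loci. Nearness was the Euclidean distance between log2 CPM values centred on the control mean. The 5 nearest of the genes tested were CHODL (distance 4.58), BGN (5.32), MAGEA3 (5.39), GC (5.72) and C1orf64 (5.81). CHODL, which encodes a membrane lectin, had 151, 150 and 104 normalized reads in control and 1.02, 1.17 and 0 in PELP1-KD. MAGEA3, a cancer-testis antigen gene, had 60.5, 67.1 and 78.2 in control and 0 in each PELP1-KD library. C1orf64 had 57.8, 54.6 and 59.1 in control and likewise 0. BGN, a matrix proteoglycan gene, kept 2.55% of its control level, and GC, the vitamin D-binding protein gene, kept 3.25%. Both thus kept a larger share of reads than DLK1. For MEG3 no such genes are given, since its values rest on 0 to 3 reads.

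**Figure D3:**
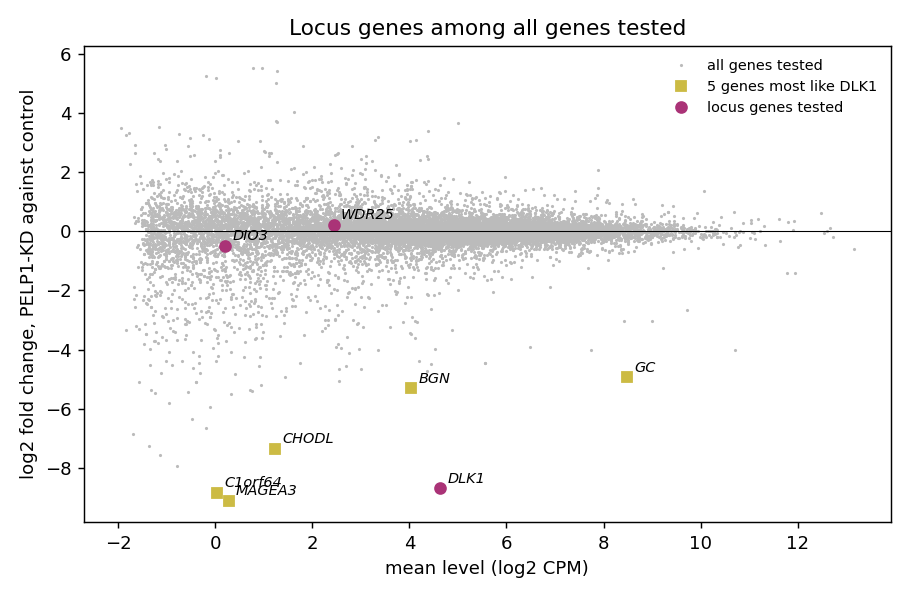
Log2 fold change (PELP1-KD against control) against mean level (log2 CPM) for the 14537 genes tested. DLK1 sits at −8.69, below genes of like mean level, DIO3 and WDR25 sit at −0.49 and 0.22 inside the main cloud, and the 5 genes most like DLK1 are marked.

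DLK1 is a ligand-like protein without the domain by which canonical ligands activate NOTCH receptors, so the other genes of NOTCH signaling were examined. Of 33 genes on this list, 30 were tested, with 7 called lower and 8 called higher by edgeR and 15 not called. These shares were near those over all genes tested, 26.8% in each direction. Their median log2 fold change was −0.01. Among receptors, NOTCH1 had 1050, 1022 and 1060 normalized reads in control and 459, 396 and 473 in PELP1-KD. NOTCH1 thus fell to 42.4% of control with no overlap of the groups (log2FC −1.23, SE 0.07, edgeR adjusted p = 5.8e-12). LFNG, a glycosyltransferase that modifies NOTCH receptors, fell from 118 ± 21.7 to 51.1 ± 12.5 normalized reads (log2FC −1.22, SE 0.18, edgeR adjusted p = 1.28e-05). NOTCH1 and LFNG were the 2 called genes of the list that fell at least 2-fold, and no called gene rose that much.

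Other NOTCH genes were looked at for their roles after their values had been seen. DLK2, the closest relative of DLK1, had 52.3, 48.9 and 36.2 normalized reads in control and 8.19, 42.0 and 39.0 in PELP1-KD. One PELP1-KD library was low and the other two lay within the control range, and the log2FC of −0.64 (SE 0.38) was not called (edgeR adjusted p = 0.179). JAG1, a canonical ligand, fell from 7253 ± 223 to 5556 ± 151 (log2FC −0.38, SE 0.04, edgeR adjusted p = 3.69e-08). HES1, a target gene of NOTCH signaling, had a log2FC of −0.08 (SE 0.05, edgeR adjusted p = 0.23).

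Genes that set or protect imprints were examined next, since methylation of the control region determines which copy of the locus is expressed. Of 23 genes, 21 were tested, with 3 called lower, 8 higher and 10 not called by edgeR, beside 26.8% in each direction over all genes tested. Their median log2 fold change was 0.03. With libraries paired by replicate number, 5 were called lower, TRIM28 (edgeR adjusted p = 0.00659) and CTCF (edgeR adjusted p = 0.00513) being added. Leaving out PELP1-KD replicate 3 also gave 5 lower, and leaving out control replicate 2 gave 5 higher. ZFP57, which protects imprints by binding methylated DNA, and DPPA3 had 0 reads in every library. DNMT1, the maintenance DNA methyltransferase, fell from 6578 ± 150 to 4947 ± 121 normalized reads (log2FC −0.41, SE 0.04, edgeR adjusted p = 1.19e-08). DNMT3B, a de novo methyltransferase, rose from 1891 ± 37.5 to 2529 ± 81.1 (log2FC 0.42, SE 0.04, edgeR adjusted p = 8.32e-08). DNMT3L, a catalytically inactive partner of de novo methyltransferases, rose from 12.8 ± 3.21 to 29.3 ± 8.01 (log2FC 1.19, SE 0.31, edgeR adjusted p = 0.0032). Methylation itself was not measured.

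For DIO3, genes that carry, convert or sense thyroid hormone were examined. Of 13 genes, 11 were tested, with 5 called lower, 3 higher and 3 not called by edgeR, beside 26.8% in each direction over all genes tested. Their median log2 fold change was −0.06. The carriers had the smallest p values. SERPINA7, the thyroxine-binding globulin gene, fell from 368 ± 8.60 to 99.9 ± 4.75 normalized reads (log2FC −1.88, SE 0.10, edgeR adjusted p = 2.37e-12). TTR, the transthyretin gene and also one of the hepatocyte markers, fell from 2938 ± 37.5 to 1928 ± 27.4 (log2FC −0.61, SE 0.04, edgeR adjusted p = 1.53e-10). DIO1, the deiodinase typical of liver, was looked at beside DIO3 after its values had been seen, and rose from 127 ± 9.85 to 198 ± 12.7 (log2FC 0.64, SE 0.11, edgeR adjusted p = 6.19e-05).

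**Figure D4:**
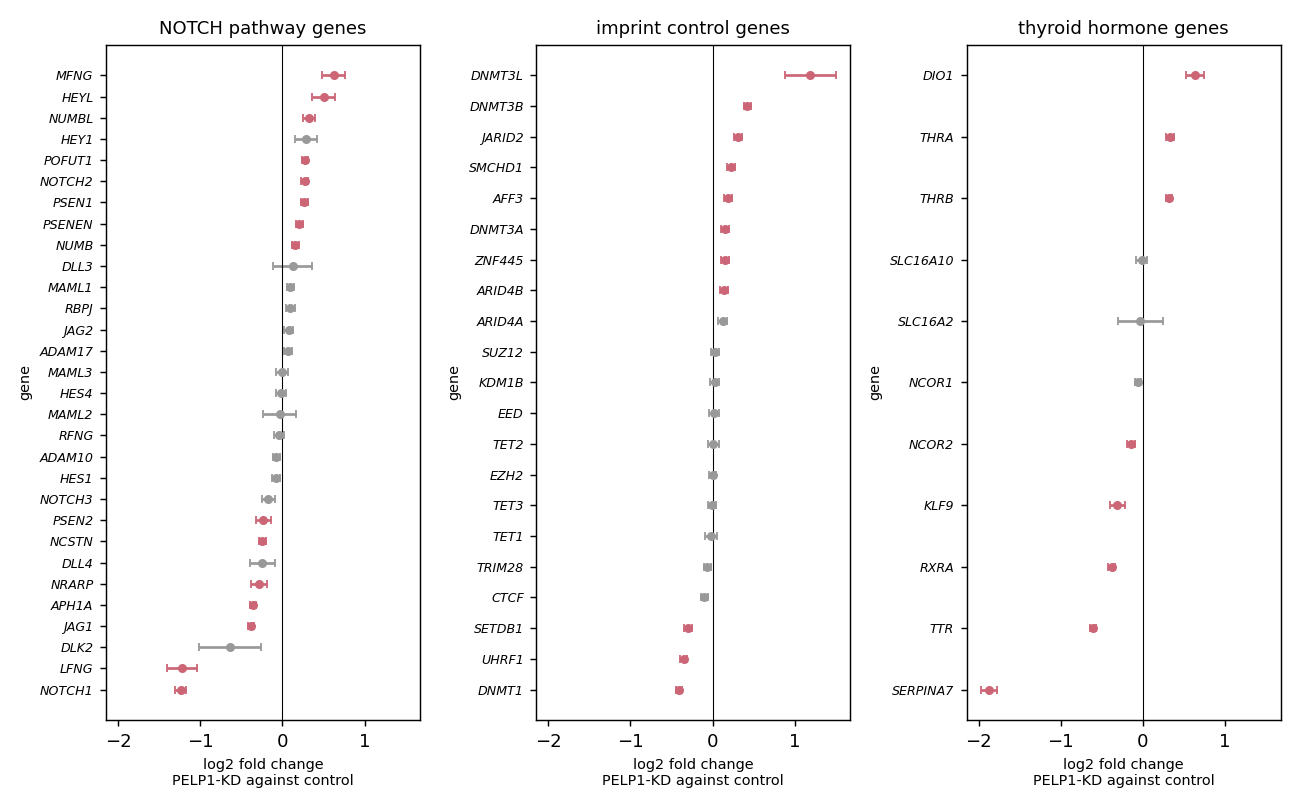
Log2 fold change (PELP1-KD against control) with standard errors for the tested genes of 3 lists, with genes called by edgeR at an adjusted p below 0.05 in red and the others in grey. Each list held calls on both sides of 0, with NOTCH1 (−1.23), LFNG (−1.22) and SERPINA7 (−1.88) the lowest and DNMT3L (1.19) the highest.

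Cell type markers were set beside the DLK1 values. Of 8 hepatocyte and hepatoma markers, 5 were called lower and 3 higher by edgeR, where 26.8% of all genes tested were called in each direction, which holds for the marker counts that follow too. ALB, the main plasma protein of mature liver, fell to 65.4% of control (log2FC −0.61, SE 0.02, edgeR adjusted p = 6.35e-14). AFP, its fetal counterpart, rose to 154% (log2FC 0.62, SE 0.03, edgeR adjusted p = 5.85e-13). The other markers are named to complete the list. HNF4A and FGB rose to 118% and 112%. GPC3 fell to 84.7%, APOA1 to 91.4%, SERPINA1 to 72.6% and TTR to 65.6%. The summed level of this list was 701376 to 716870 normalized reads in control and 642779 to 656892 in PELP1-KD. Of 5 fibroblast and stellate markers, 3 were called higher and 1 lower, with sums of 1287 to 1316 in control and 1921 to 1967 in PELP1-KD. The receptor gene PDGFRB fell from 144 ± 12.3 to 32.7 ± 2.83 normalized reads (edgeR adjusted p = 9.91e-10) and the collagen gene COL1A1 rose from 81.3 ± 9.08 to 221 ± 5.80 (edgeR adjusted p = 3.4e-09). Of 5 leukocyte markers, 2 were called lower and 1 higher, with sums of 5650 to 6007 and 3443 to 3517. LYZ, the lysozyme gene, supplied most of these reads and fell from 4264 ± 167 to 1458 ± 36.7 (edgeR adjusted p = 3.02e-16), and CD68, a macrophage gene, rose from 1381 ± 76.5 to 1927 ± 71.8 (edgeR adjusted p = 1.25e-07). PTPRC, the pan-leukocyte gene looked at as a defining marker, had 2.83 and 3.28 mean normalized reads, and CD3E had 0 in each control library and 2.05, 1.17 and 0.999 in the PELP1-KD libraries. The part of any of these in the DLK1 values was not tested.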

How the data were processed

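The authors deposited 1 table of estimated counts per library, without normalization. Per the file headers, featureCounts 1.5.0-p1 counted reverse-stranded reads on exons of UCSC hg19 genes with a minimum mapping quality of 2, and multi-mapped or multi-gene reads were shared as fractions. The labels name HISAT2 as aligner and the paper TopHat2 and HTSeq. Between 10.6% and 13.3% of values were not whole, and counts were rounded before testing.

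All genes were fitted with edgeR 4.0.16 (R 4.3.3, TMM, filterByExpr, robust glmQLFit and glmQLFTest, Benjamini-Hochberg adjustment over 14537 genes, threshold 0.05). SEs were derived from the quasi-likelihood F statistics. The method was tested on simulated counts. Replicates differed by more than sampling noise (chi-square per degree of freedom 1.92 to 6.76). Deviations from the group means were correlated across 6370 genes. Same-numbered libraries gave 0.336, 0.247 and 0.666, all above 0.1, so libraries were treated as paired in 1 alternative. Control 2 with PELP1-KD 1 gave 0.418 and control 1 with PELP1-KD 2 gave 0.244, so the numbers do not separate replicates 1 and 2. The methods of the paper name no pairing, so the reported fit had none.

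Members and gene lists were chosen with earlier results of these data known. Named were the members, PELP1, other features of the region with at least 10 reads in a library, and in each list called genes with a 2-fold change or, if fewer than 2, the 2 smallest p values, and the 5 genes nearest to DLK1. Genes named outside this rule are marked in the text as looked at for another reason. Alternatives were DESeq2 1.42.0, its size factors, upper-quartile or no scaling, other filters, pairing, and each library left out.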

Additional observations from a re-analysis of the deposited data

How the results depend on the processing

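Of 13 alternative fits, the one requiring 10 reads in every library left out DLK1, DIO3OS and MIR1247. In the others DLK1 lay between −8.75 and −8.67 on the log2 scale with other processing and between −9.07 and −8.34 with a library left out. DIO3 lay between −0.49 and −0.47 and between −0.59 and −0.29, and WDR25 between 0.21 and 0.24 and between 0.16 and 0.30. No direction reversed, and 190 of the 194 values computed stayed within their spread or within 1.5 times the count. With the replicate block, 5 imprint control genes were called lower in place of 3, and the cause was not tested. With a library left out, 3 to 5 were called lower (5 without PELP1-KD replicate 3) and 5 to 9 higher in place of 8 (5 without control replicate 2). With library size alone, 1 other feature of the region, DIO3OS, was called higher. Pairing also gave calls for PELP1, TRIM28, CTCF, ARID4A, WDR20, NOTCH3, RBPJ, MAML1, HEY1 and ADAM10, none of which passed in the reported fit. Apart from ADAM10, each of them also passed in an unpaired alternative. Beside the imprint control genes called lower, pairing moved no count by over 1.5 times. MEG8 had 0 reads and entered no fit. MEG3, RTL1 and BEGAIN entered only DESeq2 and the edgeR fit without a filter. Their fold changes there are not given, because no library exceeded 3 reads. Depth limits the reading of genes with 3 or fewer reads per library, and the short MEG3 and MEG8 models limit it further.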

Other observations

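Rare genes of the NOTCH and thyroid hormone lists that did not pass the filter on low counts were picked with their values known. The reported fit did not test them. DESeq2 and the edgeR fit without a filter held 32 genes of the NOTCH list and 13 of the thyroid hormone list. Without the filter edgeR called 9 and 4 of these higher, in place of 8 and 3, and DESeq2 called 9 and 3. Results of single rare genes in those fits are not given here. HEY2, a transcription factor gene induced by NOTCH signaling, had 2, 2 and 1 reads in control and 8, 12 and 17 in PELP1-KD. DLL1, a canonical NOTCH ligand gene, had 1 read in each control library and 3, 6 and 3 in PELP1-KD. DIO2, the deiodinase that activates thyroid hormone, had 1, 2 and 0 reads in control and 2, 4 and 9 in PELP1-KD. In HEY2 and DLL1 every PELP1-KD library held more reads than every control library, and in DIO2 the groups met at 2 reads. After normalization DIO2 had at most 1.92 reads in control and at least 2.05 in PELP1-KD, so its groups lay just apart. Over all genes tested, which leave out these rare genes, 29.5% had every normalized PELP1-KD value above control. Also outside the reported fit, NOTCH4 had 0 reads in every library, and THRSP had normalized reads only in control replicate 2 (0.958).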
